A study of Mus musculus with 14 samples.

Results

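The strain by cell type interaction asks, gene by gene, whether the difference between follicular helper and naive CD4 T cells is the same in lupus-prone and control mice. It was computed as a difference of differences, TC Tfh minus TC Tn less B6 Tfh minus B6 Tn, on the log2 scale and with each mouse as its own block. All 14 libraries of the series entered it, and all 13427 genes expressed highly enough to test of the 26683 in the table were its members. A positive value means that TC exceeded B6 in the Tfh to Tn ratio, and a negative value that TC fell short of it.

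All libraries came from spleens of female mice aged 8 months. The control strain was C57BL/6J (B6, 4 mice). The lupus-prone strain, called TC (3 mice), was B6.NZM-Sle1NZM2410/AegSle2NZM2410/AegSle3NZM2410/Aeg/LmoJ, a triple congenic line in which the NZM2410-derived intervals Sle1, Sle2 and Sle3, on chromosomes 1, 4 and 7, sit on the B6 background. From each mouse CD4+CD44+CD162lo/-PD-1+ cells (Tfh) and CD4+CD44- cells (Tn) were sorted and total RNA was sequenced, with no treatment in any group. B6 mice are numbered 1 to 4 and TC mice 1, 2 and 4, and lists of values below follow that order.

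Tfh cells enter B cell follicles through the chemokine receptor CXCR5 under control of the repressor BCL6 and help germinal centre B cells through ICOS, CD40 ligand and interleukin 21. In lupus-prone mice they accumulate and sustain autoantibody production. Naive cells are quiescent, recirculate through lymphoid organs and depend on BCL2 family proteins and interleukin 7 for survival. A comparison of both cell types within each mouse asks whether the strain difference of a gene was of similar size in Tfh and in naive cells.

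Library totals ran from 15162309 to 20191558 counts, and levels below are TMM-normalized counts per 1000000 counts (CPM), on which 3 counts correspond to 0.15 to 0.191 CPM. The sample titles and gates give the naive libraries as Tn although their source field names Tfh, and the sort markers followed the titles: Cd44 stood at 22.4 to 28.7 CPM in B6 Tn, 18.03 to 22.1 in TC Tn, 371 to 403 in B6 Tfh and 339 to 367 in TC Tfh. The Tfh gate did not exclude regulatory cells, since Foxp3 stood at 279 to 344 CPM in B6 Tfh and 258 to 393 CPM in TC Tfh. TC libraries of both cell types held a lower share of ribosomal protein transcripts (2.90 to 2.98% against 3.59 to 4.74% in Tfh, and 6.20 to 6.75% against 8.09 to 9.51% in Tn) and more of the ribosomal RNA-derived transcript Gm26917 (0.0306 to 0.0574% against 0.00305 to 0.0118%). Strain and any difference in handling cannot be told apart, and the part of these shares in the results was not tested. In bulk libraries of sorted cells, fewer cells of a type and less RNA per cell cannot be told apart.

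The interaction was small against the cell type difference. Of 13427 genes, 712 (5.3%) passed edgeR's quasi-likelihood test at a threshold of 0.05 on the Benjamini-Hochberg adjusted p and are called below, 297 with a higher ratio in TC (2.21%) and 415 with a lower ratio (3.09%). The excess of lower over higher calls turned without B6 mouse 1 (290 higher and 247 lower) and without TC mouse 2 (232 and 212). For comparison, Tfh and Tn differed in 73.9% of genes in B6 and 70% in TC, and the strains differed in 50.7% of genes in Tfh and 51.9% in Tn. Across genes the log2 ratio in TC followed that in B6 with a Pearson r of 0.947 and a slope of 0.962, which are descriptions across genes that are not independent, from strains that share no library. The interaction lay within 0.5 of 0 on the log2 scale for 83.2% of genes, and its median over all genes was -0.01. Among the 8375 genes called between Tfh and Tn in both strains, 8309 changed in the same direction and 66 in opposite directions.

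**Figure D1:**
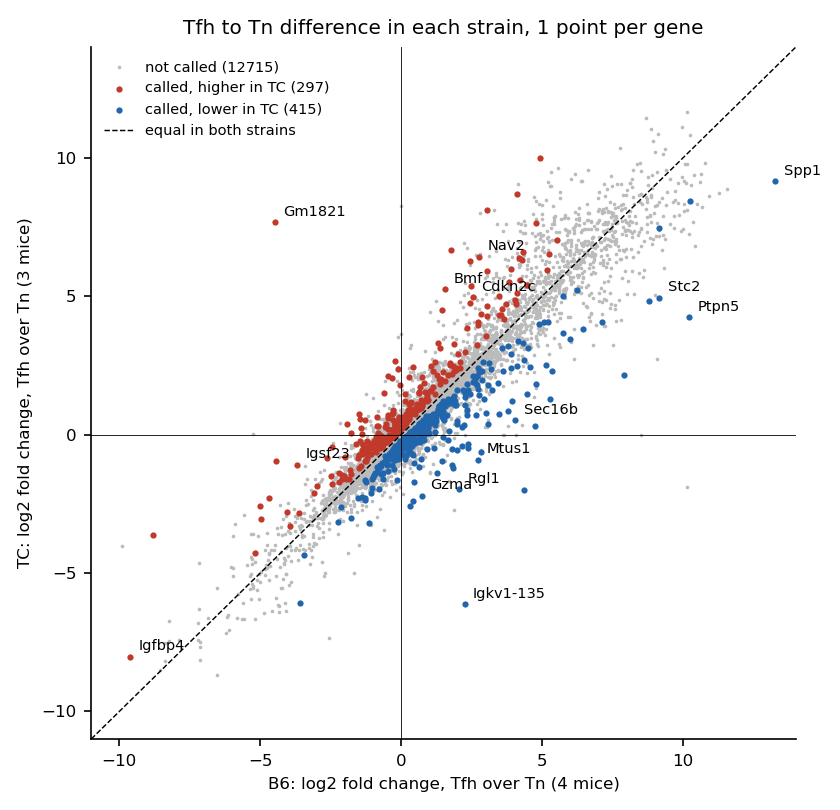
Each point is a gene, with its log2 fold change between Tfh and Tn in B6 on the horizontal axis and in TC on the vertical axis. Called genes lie off the dashed line of equal difference, 297 above it (red) and 415 below it (blue). The 12715 other genes (grey) were not called, and some of them also lie far from the line. Of all genes tested, 926 had an interaction above 1 in size, of which 79 positive and 85 negative ones were called.

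Most called genes moved between cell types in both strains, by unequal amounts. So did most genes tested, since 8375 of 13427 were called between Tfh and Tn in both strains. A rise from Tn to Tfh was larger in TC for 113 genes and smaller for 153, and a fall was smaller in TC for 78 and larger for 81. The cell types differed in B6 alone by 83 rises and 42 falls, and in TC alone by 40 rises and 60 falls. Opposite changes in the 2 strains were seen for 62 called genes. The median size of a called interaction was 0.57 on the log2 scale for positive and 0.47 for negative values, and 79 positive and 85 negative values exceeded 1 in size.

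The strain difference behind a called interaction lay more often in the naive cells. For 527 of the 712 genes (74.0%) TC and B6 were farther apart in Tn than in Tfh, a share that stood at 58.7% over all genes tested. The median absolute strain difference of the called genes was 0.60 in Tn and 0.32 in Tfh on the log2 scale, beside 0.31 and 0.27 over all genes tested. The strain difference was called in Tn alone for 243 of the 712 and in Tfh alone for 123. In 271 it was called in both cell types in the same direction, in 46 in opposite directions, and in 29 in neither. These shares describe genes chosen by the difference between the same values and carry no test.

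**Figure D2:**
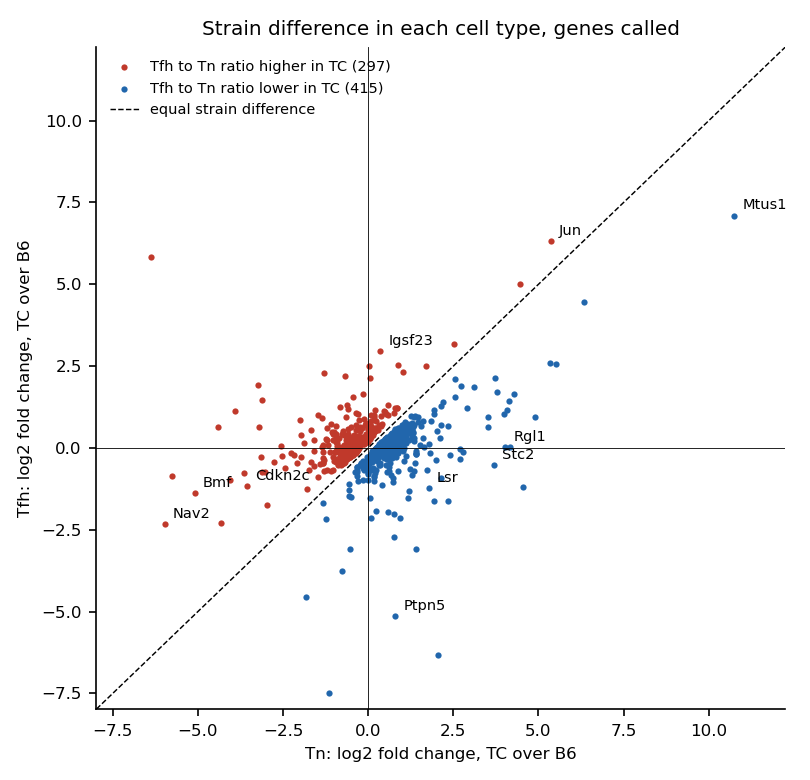
For the 712 called genes, the log2 fold change of TC over B6 is drawn in Tn (horizontal) and in Tfh (vertical), with genes whose ratio of Tfh to Tn was higher in TC in red and lower in blue. The clouds spread farther along the Tn axis, and Ptpn5 and Igsf23 are examples that spread along the Tfh axis.

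Among the genes with the largest interactions, several were nearly silent in TC naive cells alone. Nav2, a cytoskeleton-associated protein of the neuron navigator family (chr7:48908716-49610090, GRCm38), stood at 38.3, 25.6, 27.5 and 32.5 CPM in B6 Tn, 0.779, 0.382 and 0.279 in TC Tn, 226, 172, 198 and 243 in B6 Tfh and 46.04, 34.8 and 44.5 in TC Tfh. Every TC Tn library lay below every other library, and the TC Tfh libraries lay below B6 Tfh and reached into the range of B6 Tn. The log2 strain difference was -5.98 in Tn and -2.32 in Tfh, an interaction of 3.66 ± 0.21 (SE, adjusted p = 7.33e-07).

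Pglyrp1, a secreted peptidoglycan recognition protein (chr7:18871331-18890459), stood at 11.1, 11.05, 10.1 and 7.69 CPM in B6 Tn, 0.89, 0.763 and 0.724 in TC Tn, 51.9, 61.1, 57.9 and 49.5 in B6 Tfh and 34.4, 30.7 and 32.9 in TC Tfh. TC Tn again lay below every other library. Its interaction was 2.89 ± 0.18 (adjusted p = 7.33e-07). Cdkn2c, which encodes the CDK4 and CDK6 inhibitor p18INK4c and lies in the region of Sle2 (chr4:109660876-109667189), stood at 4.54, 3.59, 4.1 and 3.65 CPM in B6 Tn, 0.334, 0.318 and 0.334 in TC Tn, 25.6, 23.3, 21.9 and 22.4 in B6 Tfh and 12.1, 8.65 and 10.3 in TC Tfh. TC was lower in both cell types without overlap, by -1.17 in Tfh and -3.57 in Tn on the log2 scale. The resulting interaction of 2.40 ± 0.26 (adjusted p = 8.89e-05) kept its call whichever mouse was left out (adjusted p at most 0.00169).

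Dntt and Igfbp4 mark naive cells, and both were lower in TC naive cells. Dntt, the terminal transferase that adds bases to rearranging receptor genes and persists in recent thymic emigrants, stood at 11.9, 14.9, 14.3 and 16.7 CPM in B6 Tn and 1.5, 1.59 and 1.45 CPM in TC Tn, with no overlap. B6 Tfh held 2 counts over 4 libraries against 1028 in Tn, a Tn to Tfh ratio of 561 with a 95% counting interval of 155 to 4639, so its interaction of 5.16 ± 1.18 (adjusted p = 0.0142) rests on few counts. Without TC mouse 4 the adjusted p was 0.48.

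Igfbp4, an insulin-like growth factor binding protein of quiescent T cells, stood at 1581, 1297, 1496 and 1313 CPM in B6 Tn, 768, 748 and 706 in TC Tn, 2.03, 1.75, 1.57 and 1.87 in B6 Tfh and 3.43, 2.59 and 2.53 in TC Tfh. TC Tn lay below B6 Tn and TC Tfh above B6 Tfh, without overlap. The fall from Tn to Tfh was -9.61 in B6 and -8.02 in TC on the log2 scale (interaction 1.60 ± 0.15, adjusted p = 2.86e-05).

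A second group was active in TC naive cells and quiet in B6 naive cells. Mtus1, a microtubule-associated protein (chr8:40990914-41133726), stood at 0, 0.116, 0.117 and 0.112 CPM in B6 Tn, 160.1, 154 and 156 in TC Tn, 0.355, 0.599, 0.679 and 0.78 in B6 Tfh and 82.8, 86.1 and 81.9 in TC Tfh. B6 libraries stayed below 1 CPM, with B6 Tfh above B6 Tn, and in TC the naive cells were the higher. The log2 Tfh to Tn ratio was 2.73 in B6 and -0.91 in TC, an interaction of -3.64 ± 0.36 (adjusted p = 2.23e-05). The B6 ratio rests on 6 counts over the Tn libraries, each below the level of 3 counts, and 47 over the Tfh libraries.

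Rgl1, an exchange factor for Ral GTPases (chr1:152516760-152766351), stood at 0.928, 0.636, 0.702 and 0.505 CPM in B6 Tn, 10.5, 11.8 and 12.1 in TC Tn, 4.0, 2.65, 2.72 and 2.18 in B6 Tfh and 2.06, 3.16 and 3.55 in TC Tfh. The Tfh ranges of the strains overlapped, whereas TC Tn lay above all other libraries (interaction -4.02 ± 0.24, adjusted p = 4.43e-07). Lmtk3, a membrane-anchored kinase of the lemur family (chr7:45783738-45804144), stood at 0.774, 0.347, 0.293 and 0.618 CPM in B6 Tn, 8.29, 9.73 and 8.36 in TC Tn, 8.91, 5.64, 8.31 and 6.14 in B6 Tfh and 13.8, 17.4 and 16.9 in TC Tfh, and the excess of TC was larger in Tn, at 4.07 against 1.14 in Tfh (interaction -2.94 ± 0.24, adjusted p = 9.41e-06).

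Sec16b and Stc2 were also higher in TC than in B6 naive cells, Stc2 at low levels in both strains. Sec16b, which takes part in export from the endoplasmic reticulum (chr1:157506728-157568425), rose from Tn to Tfh by 4.05 in B6 and by 0.51 in TC. TC was higher than B6 in Tn and lower in Tfh, without overlap in either (interaction -3.54 ± 0.26, adjusted p = 3.48e-06). Stc2, the secreted glycoprotein stanniocalcin 2, had 2 counts in B6 Tn, a Tfh to Tn ratio of 711 with a 95% counting interval of 197 to 5879, and stood at 0.445, 0.254 and 0.613 CPM in TC Tn. Its interaction was -4.21 ± 0.71 (adjusted p = 0.00163, and 0.146 in a fit without the mouse term).

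Other genes differed mainly in Tfh. Ptpn5, which encodes the tyrosine phosphatase STEP, a regulator of MAP kinases (chr7:47077795-47133684), stood at 0.0516, 0.116, 0.176 and 0.0562 CPM in B6 Tn, 0.167, 0.191 and 0.167 in TC Tn, 130.2, 112, 133 and 118 in B6 Tfh and 1.94, 5.37 and 3.23 in TC Tfh. B6 Tfh lay above every other library, TC Tfh came next, and the naive cells of both strains were near or below the level of 3 counts. Its interaction of -5.96 ± 0.63 (adjusted p = 4.58e-05) was the largest negative value by the naming rule, and the ratio in Tn rests on few counts.

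Ptprf, the receptor tyrosine phosphatase LAR (chr4:118208213-118291405), stood at 8.41, 6.54, 4.57 and 5.22 CPM in B6 Tn, 8.79, 11.4 and 11.3 in TC Tn, 10.6, 6.34, 8.94 and 6.92 in B6 Tfh and 1.37, 2.46 and 2.21 in TC Tfh. TC Tfh lay below all other libraries, and the strains were closer in Tn (interaction -2.79 ± 0.23, adjusted p = 9.74e-06). Igsf23, an immunoglobulin superfamily membrane protein (chr7:19937305-19950756), stood at 54.1, 49.4, 54.2 and 50.3 CPM in B6 Tn, 65.95, 63.2 and 68.6 in TC Tn, 4.61, 4.35, 3.29 and 3.69 in B6 Tfh and 32.7, 35.4 and 25.5 in TC Tfh, with TC Tfh well above B6 Tfh (interaction 2.61 ± 0.16, adjusted p = 4.76e-06). Lsr, the lipolysis-stimulated lipoprotein receptor (chr7:30957770-30973464), differed in both cell types, lower in TC Tfh by -1.23 and higher in TC Tn by 1.78 (interaction -3.00 ± 0.26, adjusted p = 1.70e-05).

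**Figure D3:**
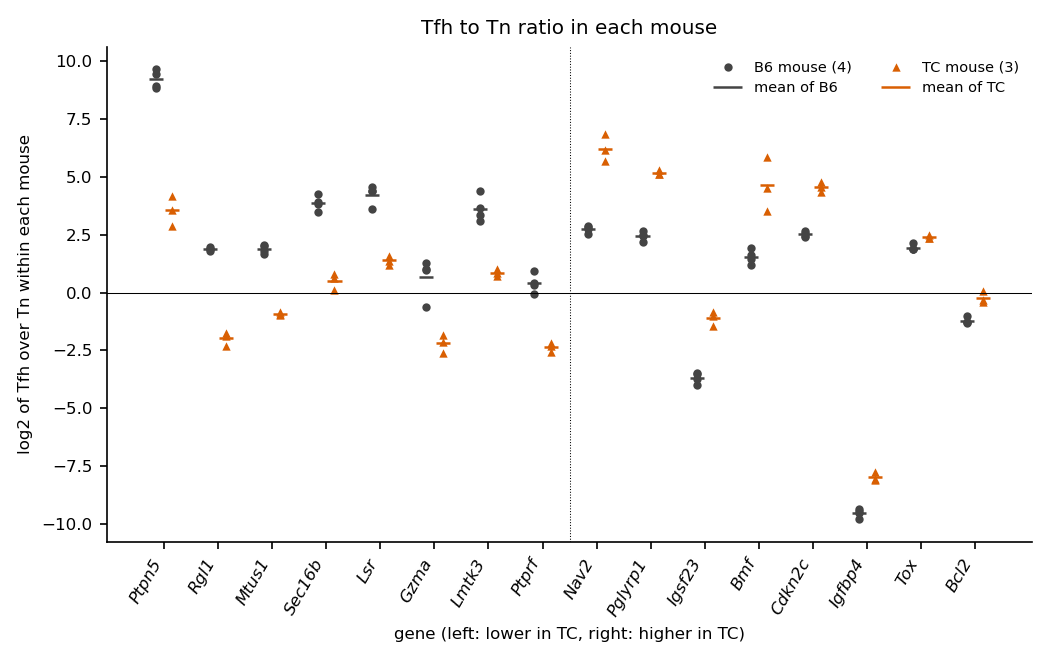
The log2 ratio of Tfh over Tn within each mouse is drawn for 16 called genes, with B6 mice as circles, TC mice as triangles and the strain mean as a bar. Most were chosen by a rule that required no overlap between the strains, so the separation drawn is a description of the choice and its size, not a result.

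Not all large values were firm. Over all genes, per-mouse ratios of the strains did not overlap for 2639 (19.7%), and 205 of the 712 calls held in each of the 7 fits that left out a mouse, whereas 19 held in none of them. Spp1, which encodes osteopontin, had no count in B6 Tn, so that its Tfh to Tn ratio in B6 was at least 1639-fold. Its interaction of -4.12 ± 0.94 (adjusted p = 0.0283) passed in 1 of the 7 fits, that without B6 mouse 2, and the adjusted p reached 0.0922 in the others. Ryr1, the ryanodine receptor calcium channel, had no count in TC Tn (at least 121-fold) and an interaction of 5.07 ± 1.28 (adjusted p = 0.0364) that passed in none of the 7 (0.0597 to 0.0989).

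The locus Gm1821 had the largest fitted value, 12.15 ± 1.63 (adjusted p = 0.00676), but stood at 14.9 CPM in the naive library of B6 mouse 4 and at 13.5, 0 and 13.3 CPM in TC Tfh. The per-mouse ratios of the strains overlapped. Without TC mouse 1 or TC mouse 4 the adjusted p was 0.0829 and 0.0835, and without B6 mouse 4 the gene was too low to test.

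The called genes were unevenly spread over the chromosomes. Chromosome 7, which carries Sle3, had 83 of 1003 tested genes called (8.28%) and 26 of them (2.59% of its genes) with an interaction above 1, beside 5.32% and 1.24% over all chromosomes. Chromosome 8, which carries none of the 3 named intervals, had 51 of 698 called (7.31%) and chromosome 6 had 44 of 659 (6.68%). Chromosomes 1 and 4, which carry Sle1 and Sle2, had 5.39% and 5.61%, near the share over all chromosomes. No test was made of these shares, since neighbouring genes are not independent.

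Within chromosomes the share of genes called varied between windows, which were singled out after their values were seen and were not tested. Among windows of 10 Mb with at least 20 tested genes, that from 60 to 70 Mb of chromosome 8 had the highest share (8 of 38, 21.1%), and that from 70 to 80 Mb next to it had 15 of 107 (14%). Csgalnact1, a chondroitin sulfate synthesis enzyme in the former window, stood at 1.34, 1.16, 0.819 and 1.4 CPM in B6 Tn, 7.68, 7.44 and 7.97 in TC Tn, 22.8, 11.9, 22.6 and 15.4 in B6 Tfh and 15.3, 17.4 and 20.4 in TC Tfh, with TC Tn above B6 Tn without overlap and Tfh overlapping (interaction -2.73 ± 0.23, adjusted p = 9.74e-06). The window from 150 to 160 Mb of chromosome 1, with Rgl1 and Sec16b, had 9 of 54 (16.7%), and that from 40 to 50 Mb of chromosome 7, with Ptpn5, Nav2 and Lmtk3, had 15 of 112 (13.4%). Other windows had shares in this range. Among them were 60 to 70 Mb of chromosome 6 (4 of 21, 19.05%), 90 to 100 Mb of chromosome 2 (8 of 49, 16.3%) and 70 to 80 Mb of chromosome 7 (4 of 25, 16%).

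Among the smallest adjusted p of all genes, beside that of Rgl1, were those of Arsb, Inafm2 and Egln3, named here after their values were seen. Arsb, the lysosomal enzyme arylsulfatase B (chr13:93771630-93943016), stood at 48.5, 42.6, 54.1 and 44.98 CPM in B6 Tn, 5.51, 5.66 and 5.35 in TC Tn, 36.4, 36.8, 42.2 and 36 in B6 Tfh and 24.05, 24.1 and 20.5 in TC Tfh. TC lay below B6 in both cell types without overlap, by -0.73 in Tfh and -3.11 in Tn (interaction 2.38 ± 0.10, adjusted p = 1.40e-08). TC Tn lay below all other libraries. Inafm2, a small membrane protein gene (chr2:118745758-118748810), stood at 19.5, 18.97, 17.1 and 17.9 CPM in B6 Tn, 90.6, 94.3 and 92.7 in TC Tn, 40.2, 40.5, 36.95 and 47.6 in B6 Tfh and 61.2, 68.9 and 66.1 in TC Tfh, with TC above B6 in both cell types and farther in Tn (interaction -1.67 ± 0.09, adjusted p = 1.64e-07). Egln3, a prolyl hydroxylase that acts on hypoxia-inducible factors (chr12:54178981-54203860), stood at 2.58, 2.43, 2.63 and 2.08 CPM in B6 Tn, 6.46, 5.41 and 5.74 in TC Tn, 58.4, 53.3, 61.2 and 57.6 in B6 Tfh and 37.8, 28.5 and 30.1 in TC Tfh. TC was lower in Tfh and higher in Tn, both without overlap (interaction -2.11 ± 0.12, adjusted p = 4.43e-07). All 3 were called in each of the 7 fits that left out a mouse.

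Most genes of the core Tfh programme had no called difference in their induction. Of 31 Tfh identity genes tested, 30 were called higher in Tfh than in Tn in B6 and 29 in TC, beside 38.8% and 35.5% of all genes. For the interaction 1 was called higher and 2 lower (9.68%, beside 5.3% of all genes, median 0.05, against -0.01 over all genes). Cxcr5, the follicle homing receptor, rose by 6.10 in B6 and 6.38 in TC on the log2 scale (interaction 0.28 ± 0.26, adjusted p = 0.628). Bcl6 rose by 2.62 and 2.82 (interaction 0.20 ± 0.16, adjusted p = 0.548) and Pdcd1, which encodes PD-1, by 6.30 and 6.37 (interaction 0.07 ± 0.21, adjusted p = 0.91). Il21 had an interaction of -1.25 ± 0.49 (adjusted p = 0.174) from naive levels near or below 3 counts in most libraries. A missed threshold does not show that these ratios were equal.

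The member called higher was Tox, an HMG-box factor of Tfh and exhausted T cells, at 101, 93.8, 90.7 and 93.6 CPM in B6 Tn, 63.6, 63.7 and 76.8 in TC Tn, 370.4, 345, 399.9 and 342 in B6 Tfh and 360.1, 325 and 399.7 in TC Tfh. Tfh levels overlapped between strains and TC Tn lay below B6 Tn, with an interaction of 0.47 ± 0.08 (adjusted p = 0.00288). The members called lower were Icos (-0.29 ± 0.06, adjusted p = 0.0197) and Fam43a (-1.69 ± 0.40, adjusted p = 0.0266). The Icos call was lost without B6 mouse 4, TC mouse 1 or TC mouse 2 (adjusted p = 0.063, 0.135 and 0.101), and that of Fam43a without B6 mouse 1 or 4 or TC mouse 1 or 2 (0.0614, 0.0837, 0.0913 and 0.081). Without the mouse term the adjusted p was 0.367 and 0.357. Among 33 naive and quiescence genes 2 were called higher and 1 lower (9.09%, beside 5.3% of all genes, median 0.02), and DESeq2 called 1. Tcf7 and Lef1, which encode factors of naive and memory T cells, had interactions of 0.02 ± 0.10 and 0.12 ± 0.10 (adjusted p = 0.951 and 0.579).

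**Figure D4:**
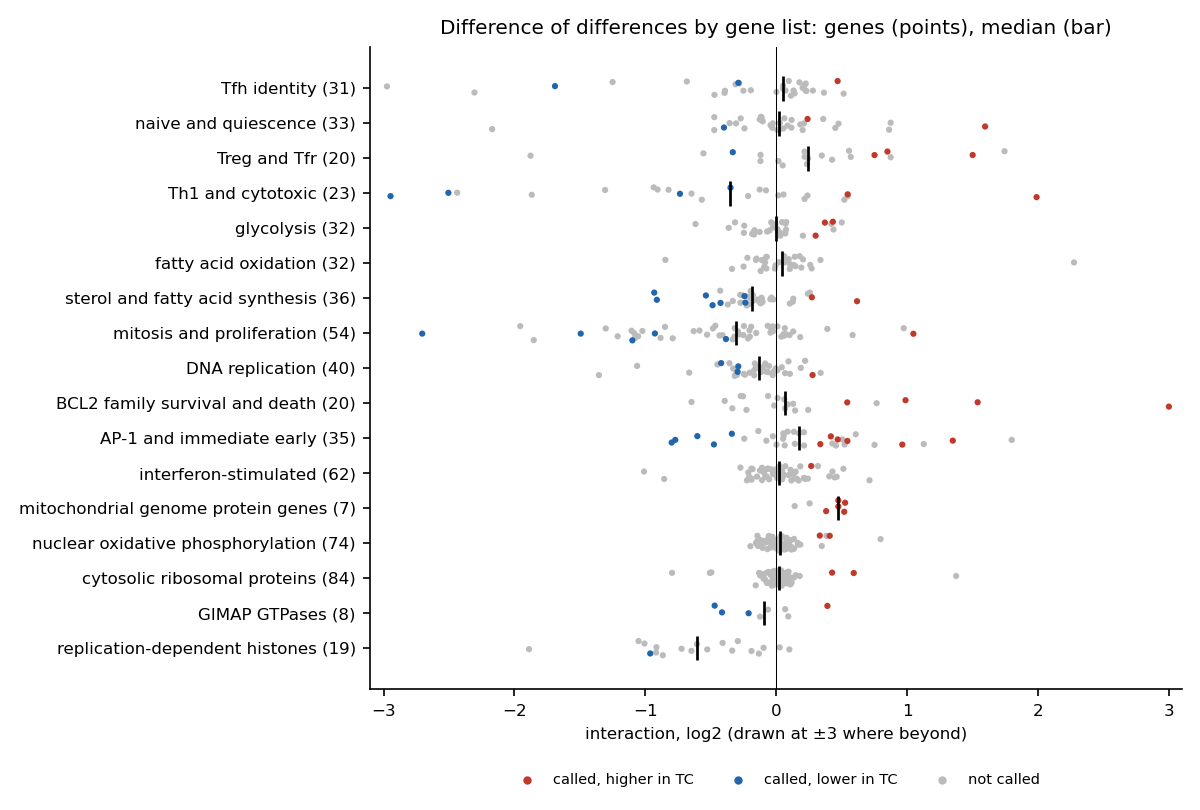
Each point is a tested gene of a list, with the number tested in brackets, the interaction on the horizontal axis in log2 units and a bar at the list's median. Red and blue points are called genes, grey points are not called, and values beyond 3 are drawn at 3. The Tfh identity, interferon-stimulated and ribosomal protein medians lie near 0, and those of mitochondrially encoded genes (0.47) and of mitosis genes (-0.31) lie on opposite sides.

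Several genes of sterol and fatty acid synthesis had a lower ratio in TC. Cells make cholesterol from acetyl-CoA through the mevalonate pathway, which is under control of SREBP transcription factors. Of 36 genes tested, 23 fell from Tn to Tfh in B6 and 27 in TC, beside 35.1% and 34.5% of all genes. For the interaction 7 were called lower and 2 higher, together 9 of 36 (25%, beside 5.3% of all genes), and 29 of 36 had a negative value (median -0.19, against -0.01 over all genes). DESeq2 called 4 and limma 9 of the list, and 3 of the 7 lower and 0 of the 2 higher calls held whichever mouse was left out. Per-mouse ratios in TC lay below B6 without overlap in 14 and above in 4, beside 11.1% and 8.56% of all genes.

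Promoters of 2 named members that moved in opposite directions, Cyp51 and Elovl5, are shown as examples of the sequence that was searched for motifs. Each run is the 250 bases before the RefSeq start in GRCm38.p6, 5′ to 3′ on the gene's strand, Cyp51 at chr5:4104698-4104947 on the minus strand and Elovl5 at chr9:77917115-77917364 on the plus strand. Capitals mark CCAAT on either strand, the box bound by NF-Y.
Cyp51: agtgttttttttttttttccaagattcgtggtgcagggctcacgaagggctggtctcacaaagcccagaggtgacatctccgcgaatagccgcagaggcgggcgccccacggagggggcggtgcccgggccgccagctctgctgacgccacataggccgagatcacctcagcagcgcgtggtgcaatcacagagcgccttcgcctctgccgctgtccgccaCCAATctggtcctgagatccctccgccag
Elovl5: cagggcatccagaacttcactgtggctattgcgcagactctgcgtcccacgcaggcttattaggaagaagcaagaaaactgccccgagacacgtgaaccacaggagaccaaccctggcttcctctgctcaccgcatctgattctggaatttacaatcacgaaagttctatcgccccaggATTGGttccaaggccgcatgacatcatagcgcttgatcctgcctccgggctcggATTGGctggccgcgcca
Of 27 tested list genes with a promoter in the table, 22 held CCAAT (81.5%), as did 40.7% of the 9399 tested genes with a promoter there. The sterol regulatory element, searched as TCACNCCAC on both strands, was found in 1 of the 27 and in 1.25% of tested genes. The motifs may share a base at their ends, and a match describes the sequence and not a site in use. Cyp51, called lower, and Elovl5, called higher, both held CCAAT and neither held the sterol element as spelled.

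Sqle, squalene epoxidase, an early committed enzyme of sterol synthesis, stood at 32.1, 31.8, 27.7 and 33.2 CPM in B6 Tn, 33.2, 40.3 and 33.6 in TC Tn, 5.67, 8.14, 4.65 and 8.27 in B6 Tfh and 4.17, 4.49 and 3.28 in TC Tfh. Its strains differed in Tfh, where TC lay below B6 without overlap, while in Tn the highest B6 library just reached the lowest of TC (interaction -0.93 ± 0.17, adjusted p = 0.00726).

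Cyp51, the lanosterol demethylase whose promoter is printed above, stood at 49.98, 50.95, 48.2 and 57.3 CPM in B6 Tn, 44.9, 55.5 and 49.8 in TC Tn, 25.7, 25.7, 22.8 and 25.2 in B6 Tfh and 16.2, 17.8 and 15.8 in TC Tfh. TC Tfh lay below B6 Tfh and the Tn ranges overlapped (interaction -0.54 ± 0.09, adjusted p = 0.00259). The calls of Sqle and Cyp51 held whichever mouse was left out. Elovl5, a fatty acid elongase, went the other way (interaction 0.27 ± 0.05, adjusted p = 0.0112), since TC was lower than B6 in Tn alone without overlap. Its call was lost without TC mouse 4 (adjusted p = 0.0524) and without the mouse term (0.132). The regulators Srebf2 (-0.18 ± 0.06, adjusted p = 0.10) and Insig1 (-0.33 ± 0.09, adjusted p = 0.0539) did not pass.

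**Figure D5:**
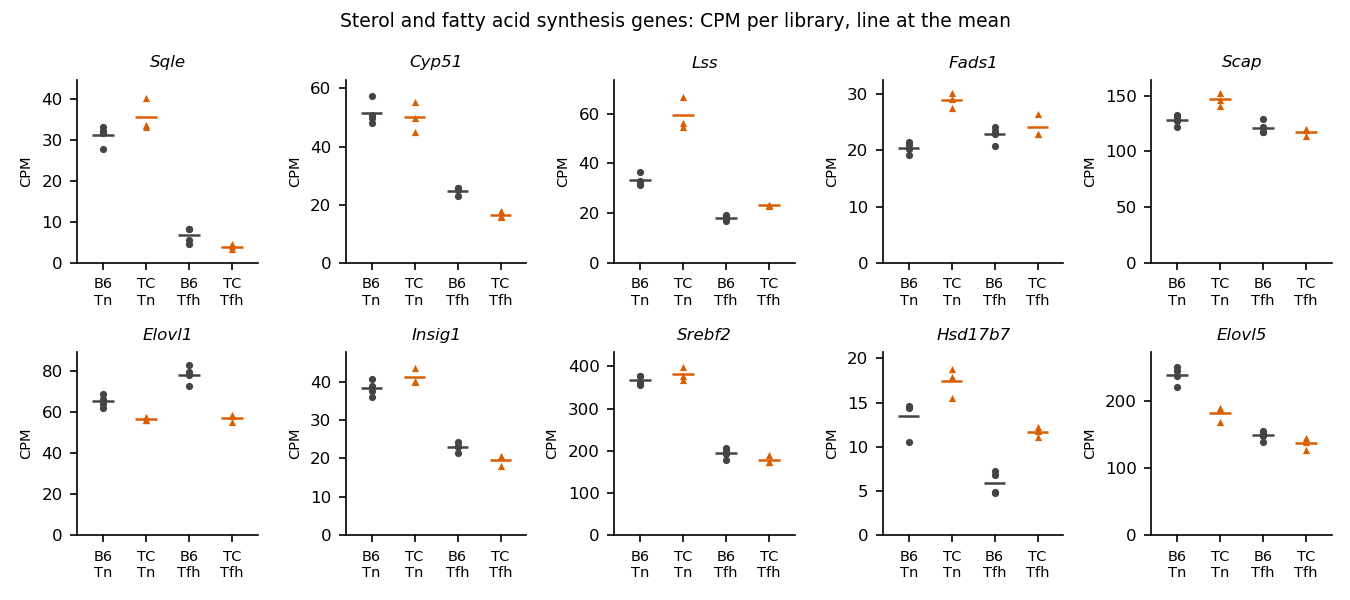
CPM of 10 sterol and fatty acid synthesis genes is drawn from 0 for each library, with a line at the group mean, B6 in grey and TC in orange. The genes from Sqle to Elovl1 were called lower, Hsd17b7 and Elovl5 higher, and Insig1 and Srebf2 were not called.

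Calls in other metabolic pathways were scattered. Of 32 glycolysis genes 3 were called, all higher (9.38%, beside 2.21% of all genes called higher, median 0.00). None of the 3 calls held whichever mouse was left out, and none of Slc2a1 (-0.17, adjusted p = 0.466), Hk2 (-0.31, 0.725), Ldha (-0.01, 0.982) or Pdk1 (0.44, 0.0825) passed. Ldhb, the lactate dehydrogenase subunit of oxidative tissues, was called higher (0.43 ± 0.08, adjusted p = 0.00942, and 0.0943 without the mouse term). Of 34 genes of pyruvate dehydrogenase and the TCA cycle edgeR called 0 (beside 5.3% of all genes), DESeq2 1 and limma 0. At an unadjusted p below 0.05 in edgeR there were 8 of the 34, beside 2605 of all 13427 genes. Of 32 genes of fatty acid oxidation edgeR called 0 (8 unadjusted), DESeq2 0 and limma 1. Txnip, which restrains glucose uptake and thioredoxin, stood at 900.4, 1364, 1098 and 953 CPM in B6 Tn, 1324, 1179 and 1116 in TC Tn, 442, 788, 703 and 562 in B6 Tfh and 293, 338 and 295 in TC Tfh. TC Tfh lay below B6 Tfh without overlap and the Tn ranges overlapped (interaction -1.16 ± 0.10, adjusted p = 2.23e-05).

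Transcripts encoded by the mitochondrial genome were lower in TC naive cells. Of 10 such genes listed, 7 were expressed highly enough to test. All 7 had a positive interaction (median 0.47) and 5 were called (71.4%, beside 5.3% of all genes). Of these calls, only that of mt-Nd1 held whichever mouse was left out, and only it held without the mouse term. The calls of mt-Nd2, mt-Nd4, mt-Cytb and mt-Co1 held in 6, 5, 4 and 2 of the 7 fits that left out a mouse. The strain difference had a median of -0.64 in Tn, called in 7 of 7, and of -0.13 in Tfh, called in 2. mt-Nd1, a complex I subunit, stood at 2019.6, 2638, 2767 and 2661 CPM in B6 Tn, 1508, 1482 and 1378 in TC Tn, 2097, 2415, 2183 and 2380.1 in B6 Tfh and 1959, 1879 and 1826 in TC Tfh. TC Tn lay below all other libraries, and its interaction was 0.52 ± 0.09 (adjusted p = 0.00466), held whichever mouse was left out. For mt-Nd2 the interaction was 0.53 ± 0.10 (adjusted p = 0.00692, and 0.0524 without TC mouse 4 and 0.0899 without the mouse term).

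Nuclear genes for the same complexes differed between strains by similar amounts in both cell types. For 74 genes of oxidative phosphorylation the median strain difference was -0.40 in Tfh and -0.44 in Tn, and the median interaction 0.03. For the interaction 2 were called, both higher (2.7%, beside 5.3% of all genes), and 0 by DESeq2. Cytosolic ribosomal protein genes, 84 tested, had a median strain difference of -0.48 in each cell type and a median interaction of 0.02, with 2 called (2.38%), both higher. For 76 mitochondrial ribosomal protein genes the medians were -0.33, -0.32 and -0.01, and edgeR called 0, as did DESeq2 and limma. At an unadjusted p below 0.05 in edgeR there were 4 of the 76, beside 2605 of all 13427 genes.

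Proliferation genes leaned to a lower ratio in TC. Of 54 mitosis genes 1 was called higher and 5 lower (11.1%, beside 5.3% of all genes), and 41 had a negative value (median -0.31). Of 40 DNA replication genes 1 was called higher and 3 lower (10%), and 31 had a negative value (median -0.14). Between strains, the mitosis genes were called higher in TC for 3 and lower for 24 in Tfh (median -0.43). In Tn these were 8 and 4 (median -0.08). For the replication genes they were 0 and 18 in Tfh (median -0.19) and 4 and 13 in Tn (-0.09). Over all genes the shares were 24.7% higher and 25.9% lower in Tfh, and 25.8% and 26.1% in Tn. The single genes below need not follow their list. DESeq2 called 3 of the mitosis and 0 of the replication genes, and limma 6 and 4. In edgeR 11 replication genes had an unadjusted p below 0.05 for the interaction, beside 2605 of all 13427 genes. Of the 4 replication calls 0 held whichever mouse was left out. Mki67, the common marker of cycling cells, had an interaction of 0.39 ± 0.22 (adjusted p = 0.379). Prc1, which bundles microtubules at the spindle midzone, stood at 1.44, 1.91, 1.76 and 1.85 CPM in B6 Tn, 4.4, 5.09 and 4.29 in TC Tn, 6.23, 7.49, 6.12 and 7.59 in B6 Tfh and 7.14, 7.14 and 5.06 in TC Tfh. TC Tn lay above B6 Tn without overlap and the Tfh ranges overlapped (interaction -1.49 ± 0.19, adjusted p = 0.000498).

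Cenpa, the centromeric histone variant, rose by 0.60 in B6 and 0.21 in TC (interaction -0.38 ± 0.07, adjusted p = 0.00477). Ccne1, which encodes cyclin E1, was the member called higher, at 7.63, 6.59, 6.2 and 6.96 CPM in B6 Tn, 5.34, 5.53 and 5.24 in TC Tn, 6.33, 6.49, 4.08 and 5.1 in B6 Tfh and 9.31, 7.45 and 9.84 in TC Tfh, with TC above B6 in Tfh and below it in Tn, both without overlap (interaction 1.05 ± 0.18, adjusted p = 0.00415). The calls of Prc1, Cenpa and Ccne1 held whichever mouse was left out. Among 19 replication-dependent histone genes 17 had a negative value (median -0.61) and 1 was called lower (5.26%, beside 3.09% of all genes called lower). It was Hist1h1c (-0.96 ± 0.18, adjusted p = 0.0070, and 0.0751 without the mouse term). Their median strain difference was 1.67 in Tn and 0.91 in Tfh. These histone messages lack poly(A) tails, so their recovery depends on how libraries were selected.

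Of 20 BCL2 family genes tested, 4 were called, all higher in TC (20%, beside 2.21% of all genes called higher, median 0.06). Bcl2, the survival factor of naive T cells, stood at 384, 309, 339 and 307 CPM in B6 Tn, 176, 190.4 and 166 in TC Tn, 155, 128, 169 and 127 in B6 Tfh and 139.9, 142 and 172 in TC Tfh. TC Tn lay below B6 Tn without overlap and the Tfh ranges overlapped, so that the fall from Tn to Tfh was -1.22 in B6 and -0.23 in TC (interaction 0.99 ± 0.11, adjusted p = 0.000817). Bmf, a BH3-only protein that antagonizes BCL2, stood at 7.99, 2.72, 6.73 and 7.13 CPM in B6 Tn, 0.0557, 0.318 and 0.167 in TC Tn, 18.4, 8.54, 26.3 and 19.5 in B6 Tfh and 9.54, 4.8 and 6.35 in TC Tfh, and TC Tn lay below every other library (interaction 3.71 ± 0.46, adjusted p = 0.000482, and 0.186 without the mouse term).

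The BH3-only genes Pmaip1 (1.54 ± 0.37, adjusted p = 0.0365) and Bbc3 (0.54 ± 0.14, adjusted p = 0.0443), which encode NOXA and PUMA, were less firm. The Pmaip1 call held without B6 mouse 3 or 4 and was lost in the other 5 fits (adjusted p up to 0.153). That of Bbc3 held without B6 mouse 1 and was lost in the other 6 (up to 0.182).

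Several immediate early genes were higher in TC in both cell types, and part of them also differed in their Tfh to Tn ratio. Of 35 tested, 18 were called higher and 3 lower in TC in Tfh, and 16 higher and 4 lower in Tn. Over all genes the shares were 24.7% and 25.9% in Tfh and 25.8% and 26.1% in Tn. The median strain difference was 0.44 in Tfh and 0.35 in Tn. The interaction was called higher for 6 and lower for 5 (31.4%, beside 5.3% of all genes, median 0.17). Of these calls 1 of the higher and 2 of the lower held whichever mouse was left out. Jun stood at 6.45, 9.66, 10.5 and 9.83 CPM in B6 Tn, 344, 565 and 208 in TC Tn, 3.39, 3.2, 3.55 and 4.06 in B6 Tfh and 264, 428 and 160.3 in TC Tfh. TC was above B6 in every library of either cell type, lowest in TC mouse 4, by 6.32 in Tfh and 5.36 in Tn (interaction 0.96 ± 0.11, adjusted p = 0.000176). Fos, the partner of JUN in the AP-1 factor, differed between strains by 6.24 in Tfh and by 6.02 in Tn, without a called interaction (0.43 ± 0.31, adjusted p = 0.521).

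Junb went the other way, at 148, 136, 153 and 129 CPM in B6 Tn, 1189, 1064 and 533 in TC Tn, 268, 232, 265 and 220.4 in B6 Tfh and 1044, 1092 and 591 in TC Tfh. The excess of TC was larger in Tn, 2.72 against 1.89 in Tfh (interaction -0.80 ± 0.08, adjusted p = 3.99e-05). Dusp2, a MAP kinase phosphatase induced by activation, stood at 122, 144, 124 and 109 CPM in B6 Tn, 248, 210.3 and 219 in TC Tn, 146, 171, 161 and 141 in B6 Tfh and 166, 151 and 176 in TC Tfh, higher in TC Tn without overlap and overlapping in Tfh (interaction -0.77 ± 0.07, adjusted p = 2.23e-05). Jun and Junb levels moved together in the 2 libraries of a mouse, and both calls were lost without the mouse term (adjusted p = 0.614 and 0.346).

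Among G protein signalling regulators Rgs2 was called higher (0.84 ± 0.12, adjusted p = 0.00208) and Rgs3 lower (-0.65 ± 0.06, adjusted p = 4.19e-05) of 11 tested (18.2%, beside 5.3% of all genes). Rgs3 stood at 62.3, 53.6, 53.5 and 56.3 CPM in B6 Tn, 135, 146 and 146 in TC Tn, 165, 157, 151 and 159 in B6 Tfh and 239, 279 and 245 in TC Tfh, and TC exceeded B6 in both cell types, by more in Tn. The Rgs2 call was lost without the mouse term (adjusted p = 0.443). Itga4, the integrin alpha 4 chain that directs homing, rose by 1.08 in B6 and 0.52 in TC (interaction -0.57 ± 0.08, adjusted p = 0.00115).

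GIMAP GTPases, which sustain lymphocyte survival, had calls in both directions, not all of them firm. Of 8 tested, 3 were called lower and 1 higher (50%, beside 5.3% of all genes, median -0.09). The lower calls of Gimap6 and Gimap9 held whichever mouse was left out. That of Gimap5 (adjusted p = 0.0482) was lost in each of these fits. The higher call, Gimap7, was lost without TC mouse 2 or TC mouse 4 (adjusted p = 0.0747 and 0.0882). Gimap9 stood at 171, 177, 181 and 169 CPM in B6 Tn, 194, 195 and 202 in TC Tn, 157, 175, 161 and 159 in B6 Tfh and 139.8, 126 and 148 in TC Tfh, with TC below B6 in Tfh and above it in Tn, both without overlap (interaction -0.41 ± 0.06, adjusted p = 0.00209). Gimap6 had an interaction of -0.47 ± 0.08 (adjusted p = 0.00364, and 0.0565 without the mouse term).

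Regulatory T cell genes leaned to a higher ratio in TC. Of 20 Treg and Tfr genes tested, all were higher in Tfh than in Tn in each strain, and 15 had a positive value (median 0.24). For the interaction 3 were called higher and 1 lower (20%, beside 5.3% of all genes). Capg, an actin-capping protein of activated and regulatory T cells, stood at 42.96, 36.9, 37.4 and 34.3 CPM in B6 Tn, 18.98, 15.96 and 20.7 in TC Tn, 173, 191, 207 and 152 in B6 Tfh and 168, 129 and 148 in TC Tfh. TC Tn lay below B6 Tn without overlap (interaction 0.75 ± 0.11, adjusted p = 0.00287). The Capg call held in each of the 7 fits that left out a mouse. Those of Gpr83 and Ccr8, also called higher, held in 5 and 3 of them, and that of Izumo1r, called lower, in 1. The list's strain difference had a median of -0.52 in Tn and -0.09 in Tfh, and the summed level of its tested members was 454 to 591 CPM in B6 Tn and 419.9 to 456 CPM in TC Tn. Foxp3 did not pass (0.57 ± 0.21, adjusted p = 0.19).

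Genes of cytotoxic and Th1 cells leaned the other way. Of 23 tested, 4 were called lower and 2 higher (26.1%, beside 5.3% of all genes, median -0.35), and DESeq2 called 4 in all. The summed level of 7 tested markers of CD8, NK and gamma-delta T cells was 30.8 to 36 CPM in B6 Tn and 49.5 to 58.3 in TC Tn. In Tfh it was 22.8 to 70.5 in B6 and 25.7 to 33.9 in TC. Gzma is 1 of the 7 and gave 25.2 to 32.7 CPM of the TC Tn sums, but below 1 CPM of those in B6 Tn. The list as a whole did not rise in TC Tn: 1 member was called higher and 1 lower, with a median strain difference of -0.18. The part of such cells in these values was not tested. Gzma, the serine protease granzyme A (chr13:113093825-113100981), stood at 0.928, 0.463, 0.644 and 0.505 CPM in B6 Tn, 32.7, 25.2 and 31.2 in TC Tn, 0.557, 1.3, 1.36 and 1.14 in B6 Tfh and 7.37, 7.08 and 5.06 in TC Tfh. TC exceeded B6 without overlap in both cell types, most of all in Tn (interaction -2.95 ± 0.41, adjusted p = 0.00149). Klrd1, the NK receptor chain CD94, stood at 6.7, 8.15, 9.89 and 8.2 CPM in B6 Tn, 19.6, 17.6 and 19.3 in TC Tn, 0.506, 1.3, 0.314 and 0.572 in B6 Tfh and 0.286, 0.316 and 0.215 in TC Tfh, with TC Tn above B6 Tn without overlap (interaction -2.50 ± 0.53, adjusted p = 0.0164). Its call was lost without TC mouse 1 or TC mouse 4 (adjusted p = 0.0811 and 0.0882). Neither Tbx21, the Th1 regulator T-bet (-0.91 ± 0.39, adjusted p = 0.217), nor Ifng (-0.57 ± 0.71, adjusted p = 0.728) passed.

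Few interferon-stimulated genes were called. Of 62 tested, 1 was called, in the higher direction (1.61%, beside 5.3% of all genes, median 0.02). Ifit1 (0.05 ± 0.17, adjusted p = 0.919), Isg15 (0.10 ± 0.16, adjusted p = 0.807) and Irf7 (-0.08 ± 0.10, adjusted p = 0.696) did not pass. Of 19 interferon-gamma induced GTPases edgeR called 0 (3 at an unadjusted p below 0.05, beside 2605 of all 13427 genes), DESeq2 1 and limma 0. Of 25 class I presentation genes edgeR called 0 (6 unadjusted), DESeq2 2 and limma 0.

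Transcripts known from other cell types were among the called genes. Of 10 tested MHC class II and myeloid genes 3 were called, all higher (30%, beside 2.21% of all genes called higher, median 1.17). They were H2-Aa, H2-Eb1 and Cd74, the last also in the B cell list. Cd74, the invariant chain, stood at 15.6, 14, 15.6 and 7.69 CPM in B6 Tn, 4.01, 2.86 and 2.4 in TC Tn, 109, 103, 119 and 94.2 in B6 Tfh and 87.04, 73.3 and 72.9 in TC Tfh (interaction 1.63 ± 0.22, adjusted p = 0.00402). H2-Eb1 stood at 1.75, 1.27, 2.05 and 0.562 CPM in B6 Tn, 0, 0.0636 and 0 in TC Tn, 6.33, 3.5, 6.59 and 2.7 in B6 Tfh and 4.0, 1.39 and 2.37 in TC Tfh, with 1 count over TC Tn, where the Tfh to Tn ratio was 135 with a 95% counting interval of 23.9 to 5381 (interaction 4.89 ± 0.78, adjusted p = 0.00188, and 0.152 without the mouse term). TC Tn lay below every other group for both genes. The summed level of the 10 genes was 54.9 to 73.4 CPM in B6 Tn and 33.6 to 34.3 in TC Tn. In Tfh it was 160.1 to 203 in B6 and 118 to 148 in TC.

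Of 11 plasma cell genes tested 4 were called, all lower (36.4%, beside 3.09% of all genes called lower, median -0.99). DESeq2 called 2 and limma 1. Jchain, the joining chain of secreted IgA and IgM, stood at 2.99, 3.41, 2.17 and 1.68 CPM in B6 Tn, 5.01, 5.15 and 1.62 in TC Tn, 15.8, 13.1, 6.53 and 5.25 in B6 Tfh and 3.26, 3.03 and 1.61 in TC Tfh, and Igha, the IgA constant region, at 4.44, 3.88, 1.17 and 0.505 CPM in B6 Tn, 23.5, 20.4 and 8.8 in TC Tn, 25.6, 18.3, 7.58 and 0.728 in B6 Tfh and 14.7, 12 and 9.57 in TC Tfh. Levels varied several-fold between mice of a strain and moved together in the libraries of a mouse. The interactions were -2.52 ± 0.25 and -2.86 ± 0.26 (adjusted p = 3.99e-05 and 0.000137), and without the mouse term the adjusted p was 0.134 and 0.291. Summed over the list, the level was 319 to 381 CPM in B6 Tfh, 255 to 294 in TC Tfh, 82.8 to 90.9 in B6 Tn and 73.3 to 106 in TC Tn. The B cell gene Ms4a1 was too low to test, and of 12 B cell genes tested 1 was called, Cd74 (8.33%, beside 5.3% of all genes). The summed level of the 12 was 601 to 626 CPM in B6 Tn and 677 to 736 in TC Tn. In Tfh it was 1883 to 2214 in B6 and 1675 to 2469.8 in TC. The list as a whole did not rise in TC Tn: 0 members were called higher and 1 lower, with a median strain difference of -0.16. The part of other cells in the results was not tested.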

How the data were processed

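The deposited table holds read counts per gene symbol, 1 column per library. The submitters' processing notes name STAR 2.7, mm10 and DESeq2. How reads were assigned to genes, with or without strand, and by which annotation is not stated, so counts of antisense, overlapping and near-identical genes are uncertain. The reference is of the B6 strain, and any lower alignment of TC reads where the TC sequence differs was not corrected. No sequencing batch is labelled.

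From the authors' counts, 13427 of 26683 symbols passed filterByExpr (count minimum 10). After TMM normalization they were fitted in R 4.3.3 with edgeR 4.0.16 (robust quasi-likelihood), with each mouse as a block and the interaction as the contrast. TC against B6 within a cell type came from a fit of 4 group means without the block. Calls are at a Benjamini-Hochberg adjusted p below 0.05, and log2 ratios per mouse use a prior count of 2. The block follows from the protocol, in which both cell types came from each mouse's spleen. Deviations of the libraries of a mouse from their group means correlated at 0.299, 0.114, 0.039 and 0.203 in B6 and at 0.209, 0.207 and 0.257 in TC. For B6 mouse 3 the value lay below that of its Tfh library with the Tn library of another B6 mouse (0.050). In all other mice the own value was the higher. No libraries were duplicates.

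The genes, lists and tests were chosen with earlier results of these data known. The naming rule took, among genes called with at least 5 CPM in a group and no overlap of per-mouse ratios, the 12 largest values in each direction outside receptor segments and unnamed loci. It added the 6 genes with the largest opposite changes, up to 4 members per list and a fixed set, and genes outside it are marked as named after their values were seen. Some genes that the rule names are not reported here. Positions are from GENCODE M21 (GRCm38, the assembly of mm10) and promoters from RefSeq (GRCm38.p6). Positions were matched for 24747 symbols directly and for 620 through a synonym, while 1266 had no match and 50 had several. Counting intervals (exact, 95%) and the floor of 3 counts cover counting error only.

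Alternatives were DESeq2 1.42.0, limma 3.58.1 on log2 CPM, RLE factors, other filters, no block, a change above 1.5-fold, a length and GC correction and each mouse left out, plus legacy quasi-likelihood, added after seeing the data. On simulated data with 13427 genes the interaction test recovered 56.7% of 1.5-fold, 67.2% of 2-fold and 78.8% of 4-fold changes, with 3 false calls among 138.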

Additional observations from a re-analysis of the deposited data

Results flagged for a closer look

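The interaction is itself a test that an effect differs between groups, and by it the Tfh to Tn ratio was higher in TC for 297 genes and lower for 415.

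In 10 of 143 named genes (6.99%) 1 of the 4 B6 mice stood apart from the others in its log2 Tfh to Tn ratio, where chance gives about 1 in 20. B6 mouse 2 was low for Bcl6 (2.18, others 2.75 to 2.78), for Pdcd1 (5.72, others 6.44 to 6.51) and for Rora (2.37, others 3.01 to 3.04), and high for Isg15 (0.28, others 0.04 to 0.07). B6 mouse 3 was high for Tox (2.14, others 1.87 to 1.88), Bcl2 (-1.01, others -1.31 to -1.27) and Cd44 (4.16, others 3.76 to 3.78), and low for Tbx21 (5.93, others 6.07 to 6.09). B6 mouse 1 was high for Slc38a9 (0.14, others 0.05 to 0.07) and B6 mouse 4 for Cd74 (3.59, others 2.80 to 2.92). The 3 TC mice are too few for this check. Tox, Bcl2 and Cd74 kept their interaction call whichever mouse was left out. The call of Rora (adjusted p = 0.0482) was lost in each of these fits but that without B6 mouse 2 (up to 0.202), and that of Slc38a9 (adjusted p = 0.0178) without B6 mouse 1, TC mouse 1 or TC mouse 4 (up to 0.122).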

How the results depend on the processing

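Of 116 named genes called for the interaction, none changed sign under the 17 alternatives. Genes called higher and lower numbered 116 and 166 without the mouse block, 178 and 189 with DESeq2 and the block, and 26 and 38 for a change above 1.5-fold. Leaving out each mouse gave 143 to 326 higher and 149 to 368 lower calls, in total 294 to 690, lowest without TC mouse 1 and next lowest (308) without TC mouse 4. Higher calls outnumbered lower ones without B6 mouse 1 (290 against 247) and without TC mouse 2 (232 against 212), and in no other of these fits. Fits with fewer mice have less power, and the self-test shows that many changes of 1.5-fold are missed even with all 14 libraries. All but 1 of the 282 genes called without the block were among the 712. With no filter 773 were called, of which 26.3% were higher, against 41.7% in the report, and with the length and GC correction 949. limma, RLE factors, TMM computed without segments and mitochondrial genes, a count minimum of 50 and legacy quasi-likelihood gave 688 to 769 calls. The median over all genes stayed between -0.06 and 0.01 on the log2 scale. Called counts for Tfh against Tn in each strain and for TC against B6 in each cell type stayed within 1.5 times under every alternative run. Without each mouse they ranged from 9276 to 9963 for Tfh against Tn in B6, from 8419 to 9452 in TC, from 5887 to 6800 for the strains in Tfh and from 6042 to 6736 in Tn. The cause of these shifts was not tested.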

Other observations

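Other gene groups gave scattered calls. Of 44 T cell receptor signalling genes 2 were called higher, among them Dgkz, and 3 lower, Cd4, Lat and Cd6 (11.4%, beside 5.3% of all genes, median 0.05). Lat, the adaptor of the receptor complex, stood at 678, 759.7, 769.7 and 777 CPM in B6 Tn, 762, 753 and 737 in TC Tn, 519, 645, 517 and 631 in B6 Tfh and 452, 478 and 404 in TC Tfh, with TC below B6 in Tfh without overlap (interaction -0.39 ± 0.09, adjusted p = 0.019). Its call held in 4 of the 7 fits without a mouse and was lost without B6 mouse 4, TC mouse 1 or TC mouse 4, with an adjusted p of up to 0.127. Of 34 cytokine receptor genes 3 were called, all higher (8.82%, beside 2.21% of all genes called higher, median 0.14), and DESeq2 called 1. Among the 3 was Il10ra (0.38 ± 0.09, adjusted p = 0.0297), with TC Tn below B6 Tn without overlap. The Il10ra call was lost without TC mouse 1 or TC mouse 2, with an adjusted p of up to 0.0875. Hmox1, which degrades heme, stood at 0.928, 0.636, 0.936 and 1.01 CPM in B6 Tn, 2.28, 2.04 and 1.39 in TC Tn, 20.6, 19.5, 19.9 and 19.8 in B6 Tfh and 18.3, 15.2 and 16.4 in TC Tfh. It was higher in TC Tn and lower in TC Tfh, both without overlap (interaction -1.36 ± 0.24, adjusted p = 0.00516), whichever mouse was left out.

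Of 10 SLAM family genes, several of which lie in Sle1, edgeR called 0 (beside 5.3% of all genes), as did DESeq2 and limma (median -0.09). At an unadjusted p below 0.05 in edgeR there were 4 of the 10, beside 2605 of all 13427 genes.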
